A study of Homo sapiens with 8 samples.

Results

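The genes described here are 37 genes of mitosis and the spindle, followed in the cell lines HT and SUDHL6. Both lines were grown from diffuse large B cell lymphomas. The genes were taken by symbol from a list chosen, like the other lists used here, with earlier results of these data known. Shares set beside those of all genes are therefore descriptions. All 37 were found among the 13701 genes deposited for HT and the 13036 deposited for SUDHL6. The series asked how these lymphoma lines responded to a small molecule inhibitor of PRC2, the Polycomb complex that methylates histone H3 at lysine 27 through its EZH subunit. Each line was kept for 96 h (day 4) with the inhibitor, labelled iEZH, or with the solvent DMSO, and 2 RNA sequencing libraries were made per group, 8 in all. Both lines are established human cultures grown in the same medium, and no dose is used here. Nothing in the labels says that replicates 1 and 2 were separate cultures, so p-values measure only the spread between these libraries, which may be technical.

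Mitosis is run by cyclin-dependent kinase 1 bound to cyclins A and B. Kinetochores assembled on centromeres catch the spindle microtubules, kinesin motors and spindle proteins shape the spindle, and a checkpoint holds back the anaphase promoting complex until every chromosome is attached. Cells make most of these transcripts in G2 and mitosis and few of them when they stop dividing, so MKI67, TOP2A and their companions are widely used to mark dividing cells. In germinal centre B cells, the normal counterpart of many such lymphomas, this set of genes is known for its high expression.

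Many of these promoters share a pair of short elements, shown because the set was lower together with iEZH. Whether the elements have a part in that was not tested. The first is a cell cycle homology region, bound by the DREAM and MuvB complexes, and the second is the CCAAT box, bound by the factor NF-Y. RefSeq windows of 300 bases (GRCh38.p14, 250 bases before to 50 after the start) were matched for 32 of the 37 genes, and those of AURKA, BIRC5, TPX2, TTK and UBE2C were not used here. The letters searched were TTTGAA or TTCGAA for the first element and CCAAT for the second, each on both strands. TTCGAA is its own reverse complement, and the elements overlapped in the windows of MKI67 and CDCA8. The 4 windows printed are from genes with 1 or more TTTGAA or TTCGAA matches and at least 2 CCAAT matches, with the smallest p in HT first. NDC80, CCNA2, AURKB and KIF2C had a smaller p in HT than these genes but lacked that pair. The NDC80 window held no CCAAT, those of CCNA2 and AURKB no TTTGAA or TTCGAA, and that of KIF2C neither element. Each printed window is written 5′ to 3′ on the strand of its gene, and capitals mark the matches, with ATTGG being CCAAT on the opposite strand. CKS1B lies at chr1:154974431-154974730 on the plus strand, CCNB2 at chr15:59104896-59105195 on the plus strand, BUB1 at chr2:110678014-110678313 on the minus strand and MKI67 at chr10:128126374-128126673 on the minus strand.
CKS1B: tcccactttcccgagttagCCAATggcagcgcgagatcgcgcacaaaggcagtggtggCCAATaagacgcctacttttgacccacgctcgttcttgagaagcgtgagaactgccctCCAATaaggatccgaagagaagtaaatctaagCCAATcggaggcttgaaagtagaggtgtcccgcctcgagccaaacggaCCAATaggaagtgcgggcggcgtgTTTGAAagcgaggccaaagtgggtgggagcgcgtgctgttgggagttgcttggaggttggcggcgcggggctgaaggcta
CCNB2: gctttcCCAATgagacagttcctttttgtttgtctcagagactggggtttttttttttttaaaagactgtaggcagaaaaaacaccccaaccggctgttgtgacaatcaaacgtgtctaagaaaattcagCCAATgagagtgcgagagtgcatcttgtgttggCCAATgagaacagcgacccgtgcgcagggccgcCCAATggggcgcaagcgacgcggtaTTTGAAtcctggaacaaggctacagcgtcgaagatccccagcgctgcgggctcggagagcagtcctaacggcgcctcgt
BUB1: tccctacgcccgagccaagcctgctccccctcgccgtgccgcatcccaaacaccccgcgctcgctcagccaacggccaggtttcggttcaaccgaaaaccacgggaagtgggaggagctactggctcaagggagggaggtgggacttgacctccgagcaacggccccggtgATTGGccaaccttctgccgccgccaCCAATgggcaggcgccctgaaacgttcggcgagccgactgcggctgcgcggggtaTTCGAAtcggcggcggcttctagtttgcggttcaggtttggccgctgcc
MKI67: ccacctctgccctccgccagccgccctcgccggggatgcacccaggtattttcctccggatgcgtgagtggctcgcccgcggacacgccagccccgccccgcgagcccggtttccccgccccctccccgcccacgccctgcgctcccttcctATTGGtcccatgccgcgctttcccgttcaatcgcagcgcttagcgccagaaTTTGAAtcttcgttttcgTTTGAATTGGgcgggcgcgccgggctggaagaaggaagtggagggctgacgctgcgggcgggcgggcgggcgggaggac
CKS1B and CCNB2 each carry a row of CCAAT boxes ahead of a single TTTGAA close to the start. BUB1 has a TTCGAA instead, with 1 CCAAT on each strand ahead of it, and in MKI67 the second TTTGAA runs straight into an ATTGG.

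The first element, TTTGAA or TTCGAA, was present in 25 of the 32 windows (78.1%), against 16.6% of all 27305 RefSeq promoters of the same length. It was in 52.2% of the 67 windows from a wider list of mitosis genes and in 9.52% of the 21 windows from DNA replication genes. In 21 of the 32 the match lay between 70 bases before and 30 bases after the start. CCAAT was found in 81.2% of the 32 windows and in 35.7% of all promoters, and both elements, with at least 2 CCAAT matches, were found in 43.8% against 1.98%. A match is a run of letters, not a measured binding site. Median changes with iEZH were close with and without the first element. The median log2 change in HT was -0.36 over the 25 genes with a TTTGAA or TTCGAA match and -0.40 over the 7 without one, and in SUDHL6 both medians were -0.26. Over the 17 genes with at least 2 CCAAT matches the median was -0.36 in HT and -0.19 in SUDHL6. Over the 15 with fewer it was -0.42 in HT and -0.33 in SUDHL6. None of these differences was tested.

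**Figure D1:**
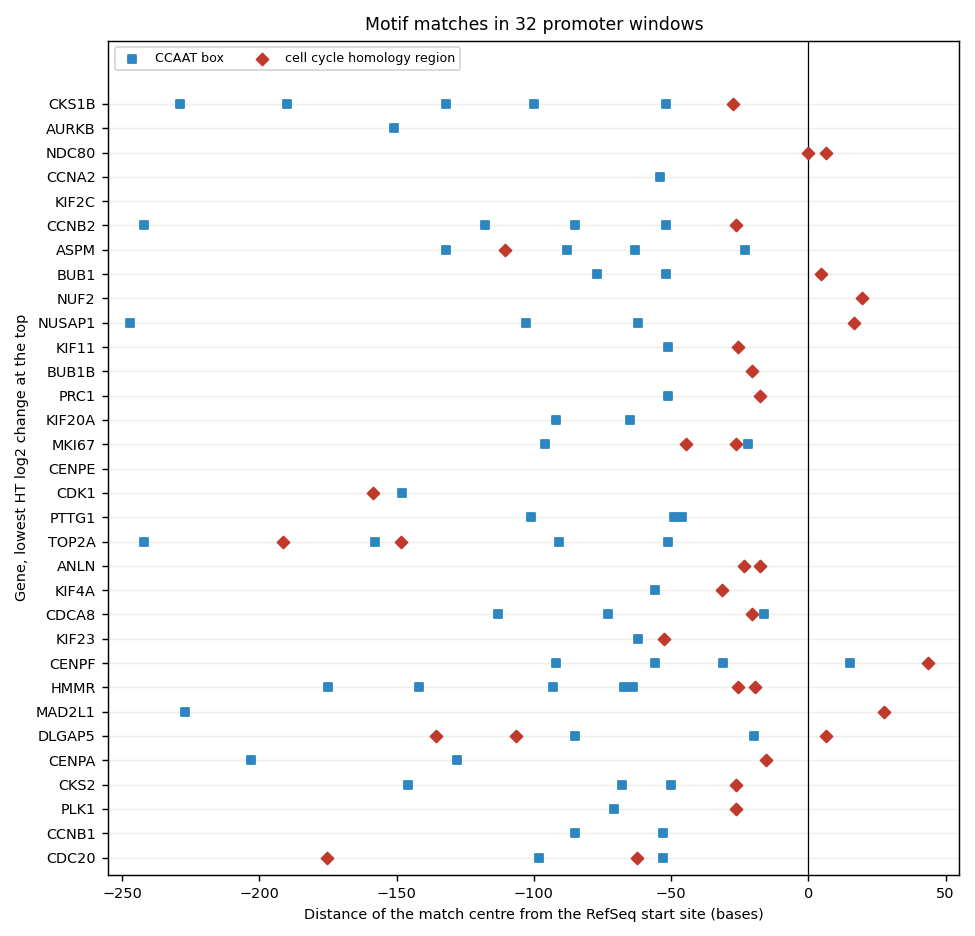
Positions of the TTTGAA or TTCGAA (red diamonds) and CCAAT (blue squares) matches in 32 promoter windows, in bases from the RefSeq start site, with 1 row per gene and the gene with the lowest HT log2 change at the top. Most red diamonds lie close to the start, in 21 genes between 70 bases before and 30 after it, and blue squares lie mostly ahead of them.

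In HT the transcripts of nearly the whole set were lower with iEZH, by a modest amount. Levels are FPKM, fragments per length of a gene and relative to the size of the library, and a log2 change is the iEZH mean minus the DMSO mean of log2(FPKM + 1), tested with limma. The log2 change was below 0 in 37 of 37 (36 under quantile normalization, where CDC20 turned), against 47.6% of all 11321 genes tested. Its median was -0.37 against 0.017 over all genes. The iEZH mean was 77.3% of the DMSO mean for the median gene, and ranged from 51.8% for CKS1B to 99.3% for CDC20. Both iEZH libraries lay below both DMSO libraries in 33 of the 37, against 23.4% of all genes, and the groups overlapped in CCNB1, PLK1, CDC20 and HMMR. A log2 change of -0.5 or lower was seen in 10 of the 37, against 4.45% of all genes. RNA from a whole culture was measured, so fewer cells in mitosis and less RNA per cell cannot be told apart.

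With 2 libraries a side, no single gene of the set passed the limma test in HT at an adjusted p of 0.05 (0 of 37, with 0.609% of all genes called and 0.15% called lower). The smallest adjusted p was 0.0561, for NDC80. At an unadjusted p under 0.05, 22 of the 37 were lower, against 7.9% of all genes, and the authors' deposited FDR was under 0.05 for 0 of 37, against 0.627% of all genes. The count was another one in a fit without very short genes. With genes spanning under 300 bp left out of the fit, NDC80, CKS1B, AURKB, CCNA2, KIF2C and CCNB2 fell in HT (6 of 37, with 5.51% of genes called and 1.44% called lower), and the log2 changes of the members are the same numbers in both fits. In that fit 1 of 37, CKS1B, was called without HT DMSO replicate 1 (4.56% of all genes called), and CKS1B alone again without HT DMSO replicate 2 (4.16%). The count was 6 without HT iEZH replicate 1 (8.93%) and 13 without HT iEZH replicate 2 (9.2%). These fits with a library left out were chosen after seeing the data. With replicate number as a block and the short genes kept, 19 of the 37 were called in HT, with 21.9% of all genes called. The limits of that fit are given near the end.

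In SUDHL6 most of the set was also lower, by less. Of the 37, 34 had a lower mean with iEZH, where 43% of all 11173 genes tested were lower, and the median log2 change was -0.25 against 0.042 over all genes. The iEZH mean was 83.7% of the DMSO mean for the median gene, and ranged from 69.3% for MAD2L1 to 114.8% for HMMR. Both iEZH libraries lay below both DMSO libraries in 28 of the 37, against 20.6% of all genes, above them in 1, HMMR, against 28.9% of all genes, and overlapped with them in 8. A log2 change of -0.5 or lower was seen in 2 of the 37, CCNA2 and MAD2L1, against 3.45% of all genes. None was called by limma (0 of 37, with 0.269% of all genes called and 0.116% called lower), the smallest adjusted p being 0.136 for NUF2. At an unadjusted p under 0.05, 8 of the 37 were lower, against 6.28% of all genes. Leaving out the short genes called 0 of the 37 in SUDHL6 as well, with 0.0182% of genes called, and the authors' deposited FDR was under 0.05 for 0 of 37, against 0.394% of all genes. A fit with replicate number as a block called 11 of the 37, with 20.7% of all genes called.

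**Figure D2:**
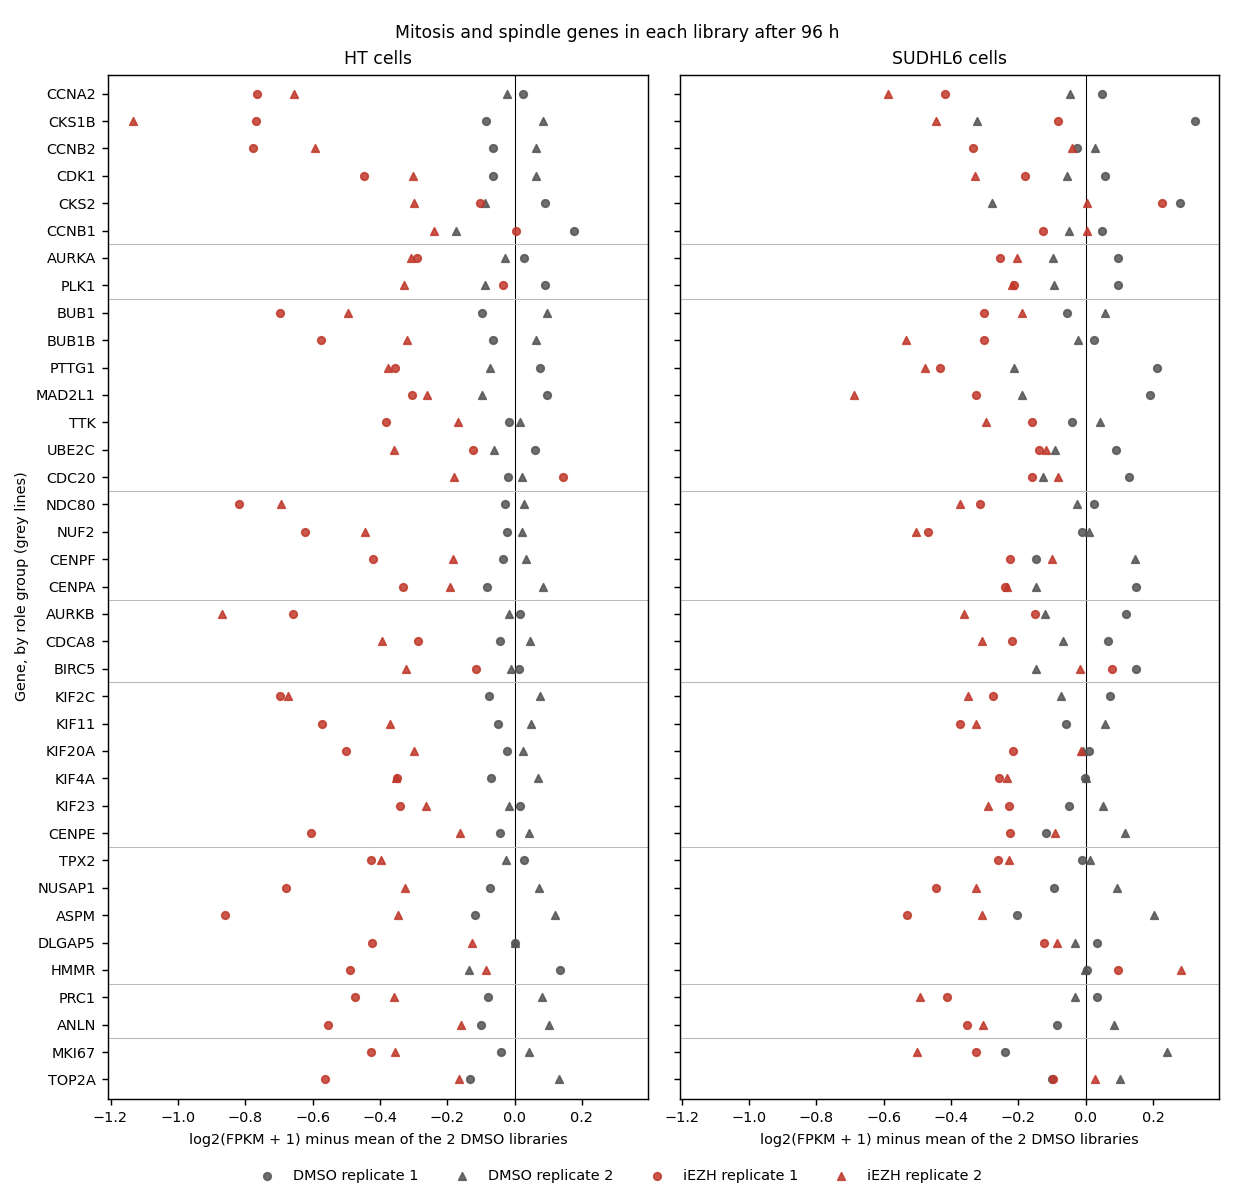
Each of the 37 genes in each library, as log2(FPKM + 1) minus the mean of the 2 DMSO libraries of the same line, with genes in rows by role (grey lines between roles), DMSO in grey and iEZH in red, circles for replicate 1 and triangles for replicate 2. In HT (left) the red symbols lie left of the grey ones in 33 rows, and in SUDHL6 (right) in 28 rows.

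Every one of the 37 was well above the floor in every library. The lowest single value was 11.3 FPKM in HT and 6.04 FPKM in SUDHL6, and all 37 passed the filter of 1 FPKM in 2 of the 4 libraries of a line. Means with DMSO ran from 14.5 FPKM for CENPA to 501 FPKM for CKS2 in HT, and from 7.26 FPKM for CENPE to 181 FPKM for CKS2 in SUDHL6. The DMSO mean was higher in HT for 33 of the 37, a comparison given without a test because the authors normalized the lines in separate tables. The order of levels was much alike, with a Spearman correlation of 0.83 between lines over the 37 genes, which share libraries within a line. A high level did not go with a large change, the Spearman correlation of DMSO level and log2 change being -0.049 in HT and -0.050 in SUDHL6. Libraries held 59563321 to 94821806 reads, per the file headers.

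Among the cyclins and the subunits of their kinase, all 6 were lower in HT, with a median log2 change of -0.53, the lowest of the 9 role groups. CCNA2 encodes cyclin A2, which drives the entry into mitosis (chr4:122737598-122745088; gene positions in the text are the authors', on hg19). It stood at 111 and 107 FPKM in the 2 HT DMSO libraries and at 63.8 and 68.8 FPKM with iEZH, a log2 change of -0.71 (SE 0.12, adjusted p = 0.0590). In SUDHL6 it stood at 42.8 and 40.0 FPKM with DMSO and at 30.7 and 27.2 FPKM with iEZH, a log2 change of -0.50 (SE 0.12, adjusted p = 0.149). The groups did not overlap in either line. The gene overlaps the end of EXOSC9, which averaged 52.6 FPKM over the HT libraries and 20.4 FPKM over those of SUDHL6, and without knowledge of strand reads in the shared stretch cannot be assigned.

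CKS1B, a small subunit that helps the kinase bind its substrates (chr1:154947117-154951725), had the lowest log2 change of the set in HT. It measured 147 and 165 FPKM with DMSO and 90.9 and 70.3 FPKM with iEZH, a log2 change of -0.95 (SE 0.17, adjusted p = 0.0651), with iEZH replicate 2 the lowest library. In SUDHL6 it measured 88.5 and 56.2 FPKM with DMSO and 66.6 and 51.6 FPKM with iEZH, a log2 change of -0.26 (SE 0.27, adjusted p = 0.671). There the DMSO libraries lay far apart and iEZH replicate 1 lay between them. CKS2, its close relative, had the highest level of the set in both lines and log2 changes of -0.20 in HT and 0.11 in SUDHL6. The 2 genes are paralogs, and how reads that match both were counted is not given in the sources used here.

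Cyclin B2 (CCNB2, chr15:59397283-59417244), 1 of the 2 mitotic B cyclins measured, stood at 106 and 116 FPKM in HT with DMSO and at 64.5 and 73.4 FPKM with iEZH, a log2 change of -0.68 (SE 0.13, adjusted p = 0.0720). Its SUDHL6 values were 57.8 and 60.0 FPKM with DMSO and 46.5 and 57.2 FPKM with iEZH, a log2 change of -0.19 (SE 0.15, adjusted p = 0.567). The groups were well apart in HT, while in SUDHL6 iEZH replicate 2 came close to the DMSO libraries. CCNB1, encoding cyclin B1, was nearly level, with log2 changes of -0.12 in HT and -0.062 in SUDHL6 and overlapping groups in both lines. CDK1, the catalytic subunit itself (chr10:62538088-62554610), was abundant in both lines. It stood at 279 and 304 FPKM with DMSO and at 213 and 236 FPKM with iEZH in HT, a log2 change of -0.37 (SE 0.14, adjusted p = 0.206). In SUDHL6 CDK1 stood at 119.9 and 111 FPKM with DMSO and at 102 and 91.5 FPKM with iEZH, a log2 change of -0.25 (SE 0.13, adjusted p = 0.394), with no overlap in either line.

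AURKA and PLK1, the 2 genes grouped here as mitotic kinases, had small differences in both lines. AURKA, which matures centrosomes and spindle poles (chr20:54944444-54967351), stood at 80.3 and 77.2 FPKM in HT with DMSO and at 64.2 and 63.4 FPKM with iEZH, a log2 change of -0.30 (SE 0.11, adjusted p = 0.214). In SUDHL6 AURKA stood at 49.0 and 42.8 FPKM with DMSO and 38.2 and 39.7 FPKM with iEZH, a log2 change of -0.23 (SE 0.12, adjusted p = 0.408). Its iEZH libraries lay below its DMSO libraries in both lines. PLK1, a kinase acting from mitotic entry to cytokinesis (chr16:23690200-23701688), measured 123 and 108 FPKM with DMSO and 113 and 91.7 FPKM with iEZH in HT, a log2 change of -0.18 (SE 0.15, adjusted p = 0.560), and iEZH replicate 1 lay between the DMSO libraries. In SUDHL6 it measured 85.2 and 74.5 FPKM with DMSO and 68.6 and 68.3 FPKM with iEZH, a log2 change of -0.22 (SE 0.13, adjusted p = 0.452), with no overlap.

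The checkpoint and anaphase genes were lower in HT in 7 of 7 and in SUDHL6 in 7 of 7, with median log2 changes of -0.28 and -0.25 and none called. BUB1, a checkpoint kinase at kinetochores (chr2:111395408-111435684), whose promoter is printed above, had the lowest HT change of the group. It measured 49.9 and 57.2 FPKM with DMSO and 32.6 and 37.6 FPKM with iEZH in HT, a log2 change of -0.60 (SE 0.14, adjusted p = 0.0982). In SUDHL6 BUB1 measured 42.2 and 45.7 FPKM with DMSO and 35.4 and 38.4 FPKM with iEZH, a log2 change of -0.25 (SE 0.12, adjusted p = 0.354). Neither line had overlapping groups.

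BUB1B encodes BUBR1, a component of the complex that inhibits the anaphase promoting complex (chr15:40453209-40513337). Its HT values were 78.5 and 85.8 FPKM with DMSO and 54.7 and 65.6 FPKM with iEZH, a log2 change of -0.45 (SE 0.14, adjusted p = 0.160). Its SUDHL6 values were 128 and 124 FPKM with DMSO and 102 and 86.5 FPKM with iEZH, a log2 change of -0.42 (SE 0.14, adjusted p = 0.231). MAD2L1, which encodes the MAD2 protein of the same inhibitory complex (chr4:120980578-120988013), was the gene with the lowest log2 change of the set in SUDHL6. It measured 32.8 and 24.98 FPKM with DMSO and 22.6 and 17.4 FPKM with iEZH there, a log2 change of -0.51 (SE 0.20, adjusted p = 0.283), and 102 and 89.4 FPKM with DMSO and 77.3 and 79.7 FPKM with iEZH in HT, a log2 change of -0.28 (SE 0.13, adjusted p = 0.287). The groups of both genes did not overlap, although the SUDHL6 libraries of MAD2L1 differed within each group.

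PTTG1, the securin that keeps separase inactive, had log2 changes of -0.37 in HT and -0.46 in SUDHL6, and TTK, the kinase that starts the checkpoint, -0.28 and -0.23. UBE2C, the ubiquitin-conjugating enzyme of the anaphase promoting complex, had -0.24 and -0.13. CDC20, the activator of that complex and the target of the checkpoint, had the HT value nearest to 0, with log2 changes of -0.019 there and -0.12 in SUDHL6 and overlapping groups in both. Its direction in HT turned to 0.071 under quantile normalization.

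At the kinetochore and centromere, 4 of 4 genes were lower in both lines. NDC80 and NUF2 encode partners in the NDC80 complex, the main attachment of kinetochores to microtubules. NDC80 (chr18:2571509-2616634) had the smallest p of the set in HT, with 87.6 and 91.1 FPKM with DMSO and 50.2 and 54.9 FPKM with iEZH, a log2 change of -0.76 (SE 0.12, adjusted p = 0.0561). In SUDHL6 it stood at 40.9 and 39.4 FPKM with DMSO and 32.1 and 30.7 FPKM with iEZH, a log2 change of -0.34 (SE 0.11, adjusted p = 0.202). NUF2 (chr1:163291722-163325553) had the smallest p of the set in SUDHL6. There its values were 46.2 and 46.9 FPKM with DMSO and 33.4 and 32.6 FPKM with iEZH, a log2 change of -0.49 (SE 0.10, adjusted p = 0.136), and the libraries within each group were nearly equal. In HT NUF2 stood at 85.5 and 88.3 FPKM with DMSO and 56.1 and 63.6 FPKM with iEZH, a log2 change of -0.53 (SE 0.12, adjusted p = 0.0978). Neither gene had overlapping groups in either line. CENPA, the histone variant that marks centromeres, had log2 changes of -0.26 in HT and -0.24 in SUDHL6. CENPF, a protein of the outer kinetochore, had -0.30 and -0.16, with overlapping groups in SUDHL6.

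The chromosomal passenger complex corrects faulty attachments through its kinase, AURKB (chr17:8108048-8113944). AURKB stood at 137 and 134 FPKM in HT with DMSO and at 85.5 and 73.8 FPKM with iEZH, a log2 change of -0.76 (SE 0.13, adjusted p = 0.0616). In SUDHL6 AURKB stood at 129 and 109 FPKM with DMSO and 107 and 92.2 FPKM with iEZH, a log2 change of -0.26 (SE 0.16, adjusted p = 0.470). The HT groups were far apart, and in SUDHL6 iEZH replicate 1 lay just below DMSO replicate 2. CDCA8, which encodes the subunit borealin (chr1:38158072-38175391), measured 93.9 and 99.9 FPKM with DMSO and 79.3 and 73.5 FPKM with iEZH in HT, a log2 change of -0.34 (SE 0.12, adjusted p = 0.193). In SUDHL6 it measured 78.3 and 71.3 FPKM with DMSO and 64.1 and 60.2 FPKM with iEZH, a log2 change of -0.26 (SE 0.12, adjusted p = 0.347), with no overlap in either line. BIRC5, the subunit survivin, had a log2 change of -0.22 in HT and of 0.03 in SUDHL6, where its groups overlapped.

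**Figure D3:**
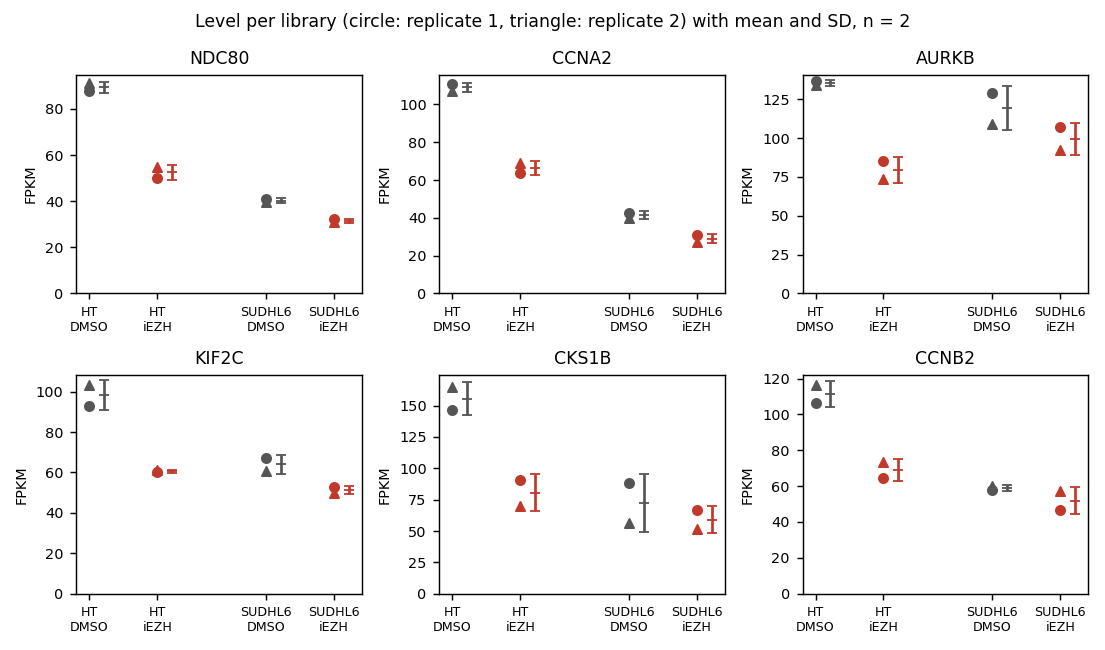
FPKM of NDC80, CKS1B, AURKB, CCNA2, KIF2C and CCNB2, the 6 genes called in HT once genes under 300 bp were left out, in each of the 8 libraries (points) with the mean and SD of each group beside them (n = 2, ticks and bars). In HT all iEZH points lie below all DMSO points, and in SUDHL6 the points of CKS1B overlap.

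All 6 kinesins were lower in both lines, with median log2 changes of -0.39 in HT and -0.25 in SUDHL6. KIF2C, or MCAK, which takes microtubules apart at centromeres (chr1:45205489-45233438), stood at 93.1 and 103 FPKM in HT with DMSO and at 60.1 and 61.1 FPKM with iEZH, a log2 change of -0.69 (SE 0.12, adjusted p = 0.0646). In SUDHL6 KIF2C stood at 67.2 and 60.7 FPKM with DMSO and 52.6 and 49.97 FPKM with iEZH, a log2 change of -0.31 (SE 0.12, adjusted p = 0.274). The iEZH libraries of HT were within 1 FPKM of each other and far below the DMSO libraries. KIF11, or Eg5, which pushes the spindle poles apart (chr10:94352824-94415152), measured 50.2 and 53.9 FPKM with DMSO and 34.7 and 40.0 FPKM with iEZH in HT, a log2 change of -0.47 (SE 0.13, adjusted p = 0.128). In SUDHL6 KIF11 measured 48.9 and 53.0 FPKM with DMSO and 39.0 and 40.4 FPKM with iEZH, a log2 change of -0.35 (SE 0.11, adjusted p = 0.213). The groups of both kinesins did not overlap.

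Of the other kinesins, KIF4A, which acts on chromosome arms and the central spindle, had log2 changes of -0.35 in HT and -0.25 in SUDHL6. KIF23, the motor subunit of centralspindlin, had -0.30 and -0.26. KIF20A, a central spindle motor, had -0.40 and -0.12, and its locus overlaps the end of CDC23 in both lines. CENPE, which carries chromosomes to the spindle equator, had -0.38 and -0.16, with overlapping groups in SUDHL6.

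Of the 5 spindle assembly genes, 5 were lower in HT and 4 in SUDHL6. TPX2, which activates AURKA on the spindle (chr20:30326903-30389603), stood at 152 and 146 FPKM in HT with DMSO and at 111 and 113 FPKM with iEZH, a log2 change of -0.41 (SE 0.11, adjusted p = 0.132). In SUDHL6 TPX2 stood at 95.7 and 97.3 FPKM with DMSO and 80.4 and 82.2 FPKM with iEZH, a log2 change of -0.24 (SE 0.11, adjusted p = 0.350). Libraries of a group differed little and the groups did not overlap. NUSAP1, a protein that bundles spindle microtubules (chr15:41624891-41673248), measured 186 and 206 FPKM with DMSO and 122 and 156 FPKM with iEZH in HT, a log2 change of -0.50 (SE 0.17, adjusted p = 0.174). In SUDHL6 NUSAP1 measured 151 and 172 FPKM with DMSO and 118 and 128 FPKM with iEZH, a log2 change of -0.39 (SE 0.14, adjusted p = 0.260). In both lines the second library of each group was the higher, and the groups still did not overlap.

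ASPM, a protein of the spindle poles (chr1:197053256-197115824), had the largest SE of the 37 in HT. It stood at 28.2 and 33.4 FPKM with DMSO and 16.4 and 23.9 FPKM with iEZH in HT, a log2 change of -0.60 (SE 0.21, adjusted p = 0.189). In SUDHL6 ASPM stood at 18.9 and 25.4 FPKM with DMSO and 14.8 and 17.5 FPKM with iEZH, a log2 change of -0.42 (SE 0.18, adjusted p = 0.318). Here too the second library of each group was the higher, and the groups did not overlap. DLGAP5, which stabilizes spindle fibres at kinetochores, had log2 changes of -0.27 in HT and -0.10 in SUDHL6. HMMR, a receptor for hyaluronan that also acts on spindle microtubules, had -0.29 in HT, with overlapping groups, and 0.19 in SUDHL6 (adjusted p = 0.472), where the iEZH libraries were the higher and no libraries overlapped.

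For cytokinesis, PRC1, which bundles the central spindle and is unrelated to the Polycomb complex of the same name (chr15:91509267-91537804), stood at 90.4 and 101 FPKM in HT with DMSO and at 68.5 and 74.4 FPKM with iEZH, a log2 change of -0.42 (SE 0.13, adjusted p = 0.151). In SUDHL6 PRC1 stood at 85.5 and 81.8 FPKM with DMSO and 62.6 and 59.2 FPKM with iEZH, a log2 change of -0.45 (SE 0.12, adjusted p = 0.158). The groups did not overlap, and the log2 changes were close. ANLN, or anillin, a scaffold of the contractile ring (chr7:36429431-36493400), measured 21.5 and 24.9 FPKM with DMSO and 15.4 and 20.6 FPKM with iEZH in HT, a log2 change of -0.36 (SE 0.18, adjusted p = 0.331), with iEZH replicate 2 close to DMSO replicate 1. The SUDHL6 libraries of ANLN measured 21.4 and 24.2 FPKM with DMSO and 17.6 and 18.2 FPKM with iEZH, a log2 change of -0.33 (SE 0.11, adjusted p = 0.235). No library of one group reached the other.

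Of the 2 genes of mitotic chromosomes, MKI67 had no overlap of groups in either line, and TOP2A had an overlap in SUDHL6 only. MKI67, which encodes the Ki-67 protein that coats chromosomes (chr10:129894924-129924468), stood at 83.9 and 88.9 FPKM in HT with DMSO and at 64.0 and 67.3 FPKM with iEZH, a log2 change of -0.39 (SE 0.11, adjusted p = 0.144). In SUDHL6 MKI67 stood at 101 and 142 FPKM with DMSO and 95.5 and 84.4 FPKM with iEZH, a log2 change of -0.41 (SE 0.21, adjusted p = 0.375). Its SUDHL6 DMSO libraries lay further apart than DMSO replicate 1 lay from iEZH replicate 1. TOP2A, the topoisomerase that untangles sister chromosomes (chr17:38544772-38574202), measured 93.6 and 113 FPKM with DMSO and 69.1 and 91.5 FPKM with iEZH in HT, a log2 change of -0.36 (SE 0.19, adjusted p = 0.343), with iEZH replicate 2 just below DMSO replicate 1. In SUDHL6 it measured 121 and 139 FPKM with DMSO and 121 and 132 FPKM with iEZH, a log2 change of -0.035 (SE 0.14, adjusted p = 0.933), and the groups overlapped.

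The change was lower in HT than in SUDHL6 for 31 of the 37, and no gene of the set passed the test of a difference between the lines. The difference (SUDHL6 change minus HT change) was above 0 for 54% of all genes tested in both lines. Its median was 0.12 over the 37 and 0.026 over all genes, and under quantile normalization it was below 0 for 13 of the 37 in place of 6. By the limma interaction term 0 of the 37 were called, with 0.106% of 10426 genes called, and 0 again without the short genes, with 0.0679% called. In the first of these fits 4 of the 37 had an unadjusted p under 0.05, against 11.1% of all genes. NDC80 differed by 0.41 (95% interval 0.077 to 0.75, adjusted p = 0.360) and CCNB2 by 0.50 (0.038 to 0.95, adjusted p = 0.420). AURKB differed by 0.51 (0.033 to 0.98, adjusted p = 0.427) and KIF2C by 0.37 (0.0037 to 0.74, adjusted p = 0.447). For HMMR the difference was 0.48 (-0.078 to 1.03, adjusted p = 0.535) and for BUB1 it was 0.35 (-0.066 to 0.77, adjusted p = 0.545).

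Most of the 37 genes were lower in both lines. Both iEZH libraries lay below both DMSO libraries in both lines for 27 of the 37, against 10.3% of the 10426 genes tested in both. With 33 of the 37 below in HT and 28 in SUDHL6, a large overlap follows from the counts within each line. It does not show that the same genes tend to fall in both. The changes in the 2 lines, which share no library, had a Spearman correlation of 0.59 and a Pearson correlation of 0.44 over the 37 genes. Genes are not independent replicates, so this is a description.

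**Figure D4:**
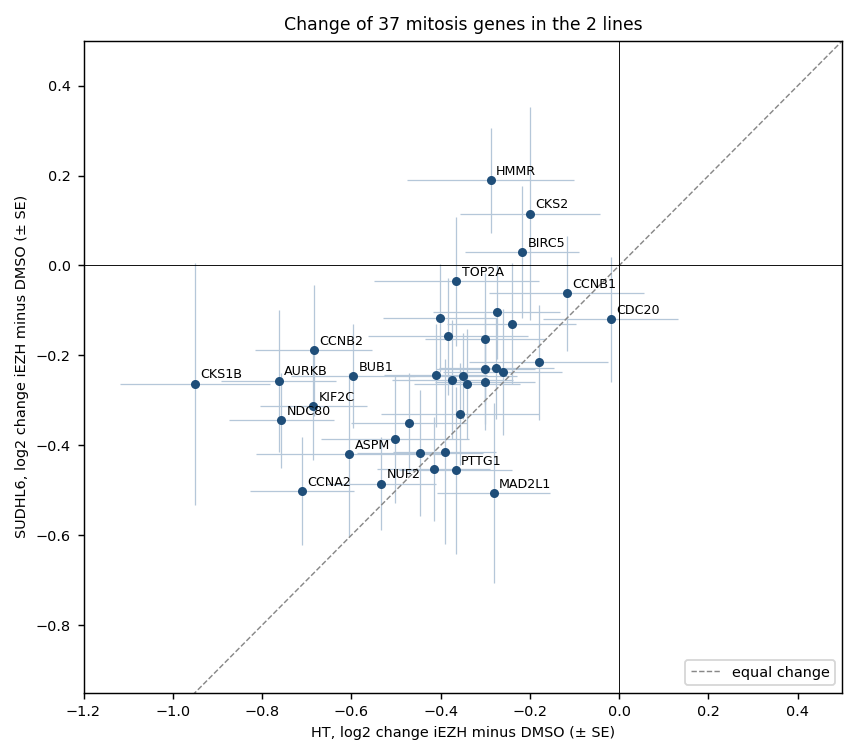
Log2 change with iEZH in HT (x axis) and in SUDHL6 (y axis) for the 37 genes, on the log2(FPKM + 1) scale, with 2 libraries per group. The points lie below 0 on the HT axis, from -0.95 (CKS1B) to -0.019 (CDC20), while HMMR, CKS2 and BIRC5 lie above 0 on the SUDHL6 axis.

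Other genes of mitosis, outside the 37, were lower as well. Of a wider list of 83, 82 were measured. In HT 80 were lower and 2 higher, with a median log2 change of -0.36, and in SUDHL6 76 were lower and 6 higher, with a median of -0.30. None of the 82 was called in either line by the main fit, and counts in other fits are given near the end. At a limma unadjusted p under 0.05, 43 in HT and 31 in SUDHL6 were lower, against 7.9% and 6.28% of all genes. Without the short genes 0 of them were called in SUDHL6 and 6 fell in HT, where 1.44% of all genes were called lower, namely the kinetochore and centromere genes SPC24, SKA1, CENPK, KNTC1 and CENPH and the condensin subunit NCAPG, of which KNTC1 and CENPH are named after their HT values were seen. That count of 6 fell in some fits with a single HT library left out and rose in others. The count of all genes called lower moved in the same directions.

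The lowest p of the wider list in HT was that of SPC24, another subunit of the NDC80 complex. It stood at 45.2 and 42.4 FPKM with DMSO and 25.9 and 22.9 FPKM with iEZH, a log2 change of -0.82 (SE 0.12, adjusted p = 0.0556), which is close to that of NDC80. SKA1, which helps that complex follow microtubule ends, had a log2 change of -0.66 (SE 0.12, adjusted p = 0.0671). CENPK, an inner kinetochore protein, had -0.73 (SE 0.14, adjusted p = 0.0701), and NCAPG had -0.61 (SE 0.12, adjusted p = 0.0721). In SUDHL6 the lowest p was that of CENPH, a partner of CENPK at the inner kinetochore. CENPH stood at 72.5 and 74.6 FPKM with DMSO and 43.2 and 42.9 FPKM with iEZH, a log2 change of -0.76 (SE 0.11, adjusted p = 0.111). MASTL, the Greatwall kinase of mitotic entry, had a log2 change of -0.66 (SE 0.12, adjusted p = 0.120). CIT, a kinase of the contractile ring, had -0.48 (SE 0.10, adjusted p = 0.133), and KNTC1, a checkpoint protein of the outer kinetochore, had -0.61 (SE 0.13, adjusted p = 0.135). Groups did not overlap in any of these 8 results, the iEZH libraries being the lower.

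By role, the 10 other entry kinases and phosphatases had median log2 changes of -0.53 in HT and -0.42 in SUDHL6, and 10 of 10 were lower in both lines. The 8 condensin subunits were lower in 8 of 8 in both lines, with medians of -0.37 and -0.39. The 15 other genes of checkpoint, anaphase and cohesin control were nearest to 0, with medians of -0.25 and -0.091.

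DNA replication genes had lower medians than the mitosis genes in both lines, a difference not tested. All 23 of that list were lower in each line, with median log2 changes of -0.63 in HT and -0.54 in SUDHL6. None was called in either line by the main fit, and counts in other fits are given near the end. Without the short genes 0 were called in SUDHL6 and 10 of the 23 fell in HT, where 1.44% of all genes were called lower. That count fell in some fits with a single HT library left out and rose in another, and the count of all genes called lower also moved. The 14 housekeeping genes had medians of -0.040 and -0.029. The 7 B cell markers were present in both lines, from 35.2 to 866 FPKM in HT and from 63.2 to 1605 FPKM in SUDHL6. Their summed level was 1675 FPKM in both HT DMSO libraries and 1800 to 2023 FPKM with iEZH, and 3490 to 3542 FPKM and 3678 to 4336 FPKM in SUDHL6. Singly they did not move together. In HT 5 were higher and 2 lower, with a median log2 change of 0.071, and in SUDHL6 4 were higher and 3 lower, with a median of 0.0078. None of the 8 T and NK cell markers passed the filter in either line, and in HT their summed level was 0.960 to 1.604 FPKM with DMSO and 2.10 to 2.94 FPKM with iEZH. Of the 8 myeloid markers 1 passed in each line, with summed levels of at most 6.98 FPKM, and the stromal and epithelial markers summed to at most 5.42 FPKM in HT. Whether these shifts have a part in the results was not tested.

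**Figure D5:**
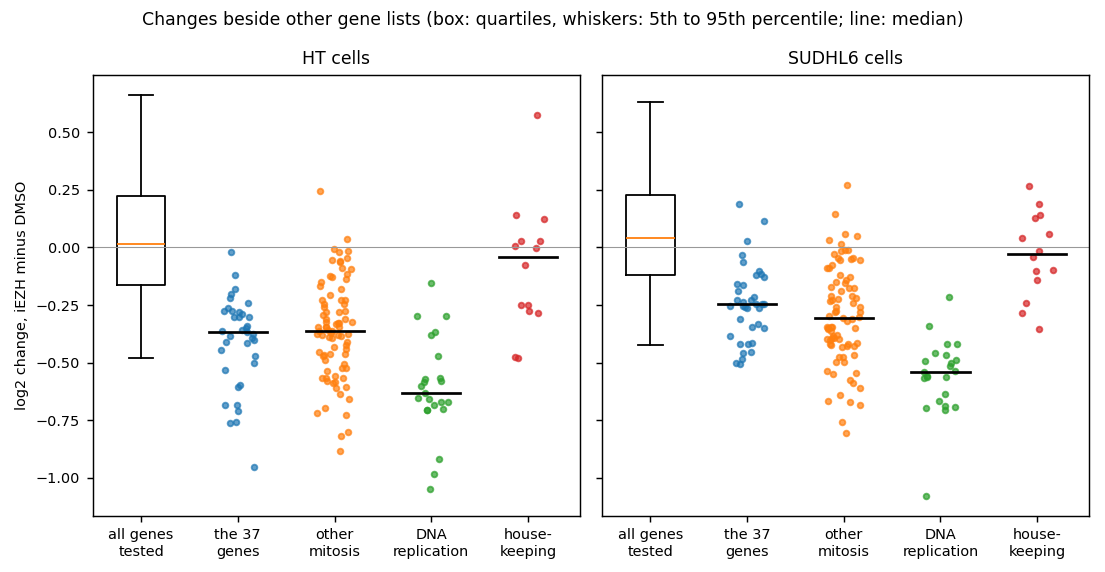
Log2 change with iEZH of the genes of each list, in HT and SUDHL6 (points are genes, on the log2(FPKM + 1) scale, with the median of each list marked as a line, and all genes tested as a box of quartiles with whiskers at the 5th and 95th percentiles). The medians of the 37 genes, -0.37 in HT and -0.25 in SUDHL6, lie between those of the DNA replication genes, -0.63 and -0.54, and of the housekeeping genes, -0.040 and -0.029.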

How the data were processed

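The authors deposited FPKM (fragments mapped to a gene, per kilobase of it and relative to library size) per gene symbol, 1 table per line, each normalized on its own; reads were processed with TopHat 1.4.1 and Cufflinks against hg19, per the submitters' processing notes. Library kit, strand and annotation are not given in the sources used here. Genes below a detection limit had been removed, per the file headers. The tables also hold p-values, FDR and fold values that the authors deposited, used only where named. Gene counts were not used here, so no counting interval is given.

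Genes reaching 1 FPKM in 2 or more of a line's 4 libraries were tested with limma 3.58.1 (R 4.3.3, eBayes with trend) on log2(FPKM + 1), two-sided, with Benjamini-Hochberg adjustment over all genes tested and calls at 0.05. Fold changes on this scale understate the change of low genes. The difference between lines was the interaction term of 1 fit of 8 libraries. There was no replicate block. The headers number the libraries of a line 1 and 2 in both treatments, without saying whether equal numbers share a culture or a day. Of the deposited values, 239 to 507 per library sit at a floor of 0.0613 FPKM in HT or 0.0712 FPKM in SUDHL6. Genes spanning under 300 bp, 367 in HT and 330 in SUDHL6, held 21.0% to 44.4% of the summed FPKM. Calls of the 37 genes and of the mitosis and replication lists are given with and without them. One HT gene whose value is not a number and a symbol listed on 2 SUDHL6 lines were left out of the fits they affect, the second only of the joint one.

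The 37 genes and all lists were chosen with earlier results of these data known. Every library is printed for the 2 genes per role with the smallest p in each line and for genes called without the short genes, and of other lists up to 4 genes with the smallest p per line. Alternatives were pseudocounts, filters, scaling, variance models, a replicate block, short genes and leaving out each library. Gene coordinates are the authors' on hg19 and promoter windows are RefSeq's on GRCh38.p14.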

Additional observations from a re-analysis of the deposited data

How the results depend on the processing

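The median log2 change of the 37 was below 0 in both lines under every alternative run. The median over all genes, close to 0, turned to -0.0064 in HT with the filter at 5 FPKM and, under quantile normalization, to -0.016 in SUDHL6 and -0.023 for the difference between lines. Medians of the other lists were not recomputed. Against 0 of 37 in HT, robust eBayes called 5 (4.39% of all genes called), 1 fit of both lines called 7 (6.22%) and leaving out the short genes called 6 (5.51%). Leaving out 1 library called 0 to 1 in HT, and 1 to 13 when the short genes were left out too. In HT the only gene called without DMSO replicate 1 or without iEZH replicate 1 was CKS1B (adjusted p = 0.0301 and 0.0366). With replicate number as a block, 19 of 37 were called in HT and 11 of 37 in SUDHL6, while 21.9% and 20.7% of all genes were called. That fit called 41 of the wider list lower in HT and 36 in SUDHL6, and 20 and 21 of the replication genes. Over all genes it called 924 lower in HT and 828 in SUDHL6. The 1 fit of both lines called 14 and 2 of the wider list lower, and 9 and 5 of the replication genes. Over all 10426 genes it called 215 and 92 lower. The replicate block without the short genes called 29 in HT (33.5% of all genes called), 21 in SUDHL6 (34.3%) and 4 for the difference between lines (12.3%). The labels do not say that the numbers pair libraries. A block fitted besides treatment to the 4 libraries of a line leaves little from which to estimate the spread of a gene. Deviations of same-numbered libraries correlated at 0.27 in HT and 0.19 in SUDHL6 over all genes, and at 0.62 and 0.73 without the short genes. Over the 37 genes they correlated at 0.45 in HT and 0.54 in SUDHL6.

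The median log2 change ran from -0.45 to -0.33 in HT and from -0.29 to -0.24 in SUDHL6 with 1 library left out. Of single genes, CDC20 in HT turned to 0.071 under quantile normalization. With 1 library left out, the direction turned in HT for CCNB1 (-0.29 to 0.058) and CDC20 (-0.18 to 0.14). In SUDHL6 it turned for CKS1B (-0.59 to 0.061), CDC20 (-0.25 to 0.0067), CKS2 (-0.16 to 0.39), BIRC5 (-0.12 to 0.18), TOP2A (-0.13 to 0.066) and CCNB1 (-0.13 to 0.0032). In these fits the lone library of a group is assumed to vary like the others. The median SE of a log2 change was 0.13 in both lines, from 2 libraries a group, which limits the differences these data can separate.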

Other observations

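Size of the change differed between the 2 HT iEZH libraries. Against the mean of the DMSO libraries, the median over the 37 genes was -0.45 in HT iEZH replicate 1 and -0.33 in replicate 2, and in SUDHL6 it was -0.24 and -0.29. Over all genes tested these medians were 0.03 and 0.01 in HT and 0.05 and 0.03 in SUDHL6. Within both replicate numbers the iEZH library was the lower for 35 of the 37 in HT, against 35.2% of all genes, and for 31 of the 37 in SUDHL6, against 32.8%.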
